A study of Homo sapiens with 12 samples.

Results

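HLE cells, an established human hepatocellular carcinoma line, were transfected with an siRNA against *ATF4* (siATF4) or with a control siRNA (siCtrl) and kept in the vehicle DMSO, without Sorafenib. The 4 libraries of these cells, 2 of siATF4 DMSO and 2 of siCtrl DMSO cells, were chosen by their labels out of 12 libraries in 6 groups. The other groups were siYAP/TAZ (siY/T) cells in DMSO and the 3 kinds of transfected cells in Sorafenib (Srf), at 5 µM by the labels, a kinase inhibitor used against liver cancer. The study asked how liver cancer cells withstand Sorafenib, and the vehicle arm answers which transcripts depend on ATF4 when no drug is present. HLE cells are 1 line, a single reagent served against *ATF4*, and the labels do not say whether the 2 libraries of a group came from separate cultures. The p-values thus measure only the spread between libraries of the same group, estimated over all 6 groups. Effects of the siRNA on transcripts other than *ATF4* were not tested and cannot be told apart from effects of ATF4 loss.

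ATF4 is a basic leucine zipper transcription factor at the centre of the integrated stress response (ISR). When kinases phosphorylate the initiation factor eIF2alpha, general translation falls while *ATF4* mRNA is translated more, and ATF4, often paired with a C/EBP protein, binds C/EBP-ATF response elements near genes of amino acid synthesis, amino acid uptake, tRNA charging and redox defence. Its targets also include factors that feed back on the response, such as CHOP (*DDIT3*), *TRIB3* and the phosphatase subunit GADD34 (*PPP1R15A*). In liver cancer cells it is best known for sustaining cystine uptake and glutathione, which hold back ferroptosis, a form of death by iron-dependent lipid peroxidation.

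Levels are in CPM as deposited, where 1000000 stands for the summed gene reads of a library. Gene reads of the 4 libraries ranged from 45062847 to 53619732, so that 1 read stood for 0.0186 to 0.0222 CPM, and none stood apart from its pair. The SD of the log2 difference between paired libraries was 0.112 in siCtrl and 0.110 in siATF4 cells. Of 16 hepatocyte markers 14 lay under 1 CPM in all 4 libraries, with *ALB*, *APOA2*, *APOB*, *TTR* and *TF* at 0, and the summed level, nearly all of it *FGB*, was 369 to 432 CPM in siCtrl and 68.9 to 72.7 CPM in siATF4 cells. Of 10 epithelial markers 7 lay under 1 CPM, among them *EPCAM*, and the sum was 3350 to 3470 CPM in siCtrl and 2340 to 2480 CPM in siATF4 cells. Of 9 mesenchymal markers 1 lay under 1 CPM, and the sum was 2880 to 2980 CPM against 2640 to 2720 CPM. The cells thus carried most of the mesenchymal markers, a few epithelial markers and few of the markers of a hepatocyte. In siCtrl cells the keratin *KRT8* was at 2284 and 2205 CPM and *KRT18* at 1047 and 1017 CPM. Of 8 blood cell markers 7 lay under 1 CPM, with *PTPRC*, *CD3E* and *HBB* among those at 0.

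With siATF4 in vehicle more genes were called lowered than raised. Among the 13515 genes tested, siATF4 lowered 1910 (14.1%) and raised 1158 (8.57%). A call needed a move of 0.58 or more up or down on the log2(CPM + 0.5) scale together with P under 0.05, two-sided and unadjusted, from limma. Of these, all 1910 lowered and 1157 of the raised genes also had an adjusted p under 0.05. By adjusted p alone, whatever the size, the directions were nearly even, with 4655 genes lower (34.4%) and 4516 higher (33.4%). After quantile normalization 1563 genes were called lowered and 1350 raised. Counts within gene lists are to be read against the shares called. Lists and members were chosen with earlier results of these data known, so an excess over these shares is only a description. A change of at least 1 on the log2 scale was reached by 764 lowered and 278 raised genes, and a change of at least 2 by 91 and 41. The 2 groups of libraries did not overlap for 11894 genes (88.0%), so that a lack of overlap by itself says little here.

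**Figure D1:**
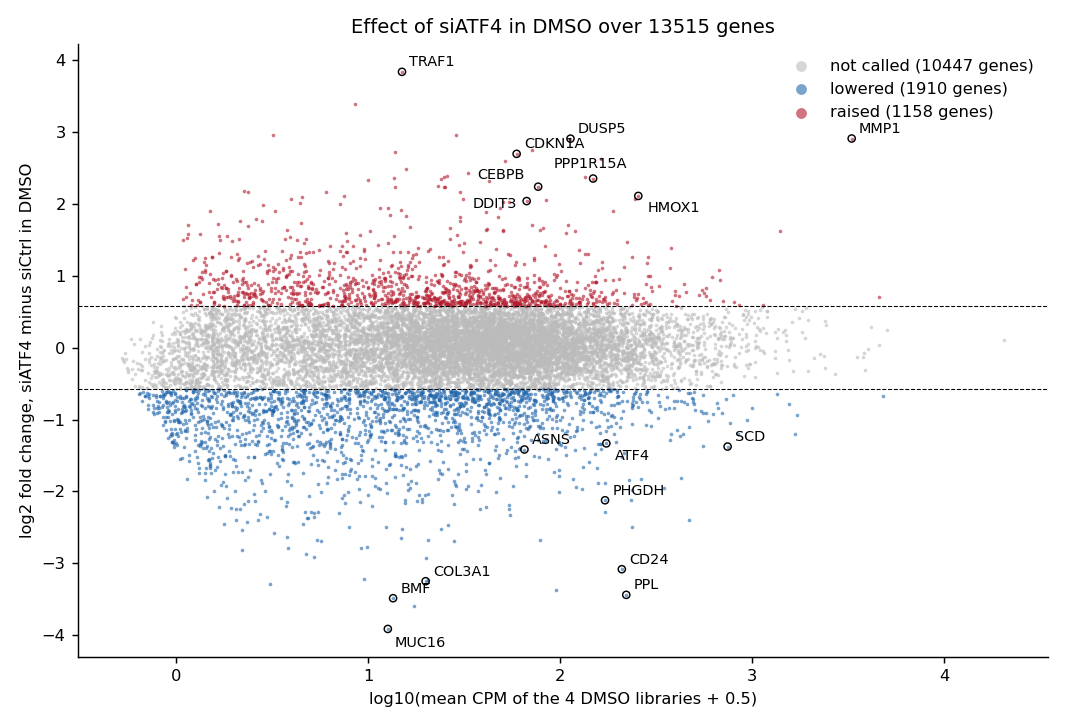
Each point is 1 of 13515 genes, with the log10 of its mean CPM over the 4 DMSO libraries plus 0.5 on the horizontal axis and its log2 fold change, siATF4 minus siCtrl in DMSO, on the vertical axis. Dashed lines mark changes of 0.58 in either direction. The 1910 lowered genes (blue) reach down to *MUC16* at -3.91 and the 1158 raised genes (red) up to *TRAF1* at 3.83, and *MMP1* stands out among abundant transcripts.

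*ATF4* (Entrez 468, chromosome 22 from 39915700 to 39918688 on GRCh37) was measured at 248 and 249 CPM in the siCtrl libraries and at 96.2 and 101 CPM in the siATF4 libraries. Both siATF4 libraries lay well below both siCtrl libraries, with a log2 fold change at -1.33 (standard error 0.044, adjusted p = 5.67e-11). The knockdown of the message was thus partial, and the level of ATF4 protein was not measured here.

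Within the ISR list the factors and effectors split. Of 13 members, siATF4 lowered 6 and raised 5, beside 14.1% and 8.57% of all genes. The median log2 fold change was -0.53, beside -0.001 over all genes tested. The lowered members besides *ATF4* were *VLDLR* (-1.49), a lipoprotein receptor, *NUPR1* (-1.39), a stress-induced chromatin protein, *CHAC1* (-0.87), an enzyme that degrades glutathione, *JDP2* (-0.86), a leucine zipper repressor, and *ATF5* (-0.85), a relative of ATF4. *NUPR1* was at 0.876 and 0.954 CPM in siCtrl and at 0.0857 and 0 CPM in siATF4 cells, near the bottom of what these libraries can show. *CHAC1* was at 3.71 and 3.40 CPM in siCtrl and at 1.74 and 1.70 CPM in siATF4 cells. The raised members were regulators of the response or partners of ATF4. *PPP1R15A*, whose product GADD34 leads a phosphatase to eIF2alpha, went from 46.5 and 49.9 CPM to 240 and 256 CPM (log2 fold change 2.35, standard error 0.063, adjusted p = 9.89e-12). *CEBPB*, a bZIP partner of ATF4, went from 24.9 and 28.0 CPM to 130 and 123 CPM (2.24). *DDIT3*, which encodes the pro-apoptotic factor CHOP, went from 26.2 and 25.2 CPM to 108 and 107 CPM (2.04, standard error 0.048, adjusted p = 6.24e-12). For each of these 3 genes both siATF4 libraries lay far above both siCtrl libraries. The pseudokinase gene *TRIB3* (0.84) and *CEBPG* (0.61), another bZIP partner, rose less. *DDIT3* shares 27.2% of its annotated exon bases with *MARS1* on the opposite strand, and *MARS1* itself had a log2 fold change of 0.15. *ATF3*, another bZIP member of the response, stood at -0.53 and did not reach the size required for a call.

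Of 9 genes for eIF2alpha and the proteins that act on it, *PPP1R15A* alone was called, a share near the 8.57% raised among all genes. By adjusted p alone 1 was lower, the heme-regulated kinase gene *EIF2AK1* (-0.41), and 4 were higher, among them *EIF2S1* (0.38), which encodes eIF2alpha itself, and *PPP1R15A*, and the PERK kinase gene *EIF2AK3* stood at 0.12 (adjusted p = 0.224).

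The C/EBP-ATF response element was looked for as TGATGNAA on both strands in the 250 bases before the start of each gene, in RefSeq promoters of GRCh38.p14 that matched 10711 of the tested genes. The stress response, amino acid, tRNA synthetase and glutathione lists had 15 lowered members with a promoter, and *SLC7A11* and *NUPR1* were not searched here. The following 3 of the 15 held a match, shown because they place the letters of the element beside genes with a measured fall. Capitals mark the match, and each window is written 5′ to 3′ on the strand of its gene.
ASNS: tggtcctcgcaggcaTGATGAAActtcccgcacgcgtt
CHAC1: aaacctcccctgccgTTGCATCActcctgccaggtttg
GPX8: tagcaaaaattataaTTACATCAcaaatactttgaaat
The *ASNS* window lies at chr7:97872454-97872491 on the minus strand with the match 68 bases before the start, that of *CHAC1* at chr15:40953247-40953284 on the plus strand with the match 209 bases before it, and that of *GPX8* at chr5:55159967-55160004 on the plus strand with the match 189 bases before it. In *CHAC1* and *GPX8* the element reads on the opposite strand. The next 3 promoters hold the same kind of element beside genes that siATF4 did not lower, and were picked for that contrast after their values were seen.
AARS1: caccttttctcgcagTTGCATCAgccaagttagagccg
BCAT1: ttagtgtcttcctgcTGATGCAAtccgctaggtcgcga
MTHFD1L: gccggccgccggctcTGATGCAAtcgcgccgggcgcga
These windows lie at chr16:70289671-70289708 (minus strand), chr12:24949127-24949164 (minus strand) and chr6:150866342-150866379 (plus strand). The log2 fold changes of *AARS1*, *BCAT1* and *MTHFD1L* were 0.14, -0.12 and 0.16, none of them called. Over all these lists 11 of 88 promoters (12.5%) held the letters, 3 of 15 among lowered members and 8 of 73 among the others. Among all tested genes with a promoter the share was 1.43%, with 1.74% among lowered and 1.93% among raised genes, and over all 27305 promoters of the table it was 3.19%. A match says only that these letters stand in the window.

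The first enzymes of serine synthesis fell, while the list of serine and one-carbon genes as a whole, with 2 of 14 lowered, 1 raised and a median of 0.09, stood near the shares of all genes. *PHGDH*, which takes the first step from glycolysis to serine, was at 292 and 264 CPM in siCtrl and at 61.4 and 65.5 CPM in siATF4 cells. The groups lay apart by -2.12 on the log2 scale (standard error 0.061, adjusted p = 1.87e-11). *PSAT1*, the next enzyme of the pathway, fell from 171 and 167 CPM to 75.6 and 76.5 CPM (-1.14). The mitochondrial folate carrier *SLC25A32* rose (0.86), although 69.7% of its annotated exon bases are shared with another protein-coding gene on the same strand. The other 11 of the 14 serine and one-carbon members tested were not called, among them the mitochondrial folate enzyme *MTHFD2*, at 99.7 and 94.0 CPM in siCtrl and at 113 and 112 CPM in siATF4 cells (0.22).

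Of 16 other amino acid enzymes, 3 fell and 1 rose, near the 14.1% and 8.57% of all genes, with a median of -0.13. *CBS*, which joins homocysteine and serine on the way to cysteine, went from 51.8 and 46.9 CPM to 14.7 CPM in both siATF4 libraries (log2 fold change -1.71, adjusted p = 1.34e-08). *ASNS*, asparagine synthetase, went from 99.6 and 89.2 CPM to 34.2 and 35.8 CPM (-1.42, adjusted p = 2.22e-07). *GLUL*, glutamine synthetase, went from 228 and 218 CPM to 100.0 and 95.7 CPM (-1.18). All 6 siATF4 values lay below the siCtrl values of the same gene by more than the spread between libraries. *PYCR1*, a proline synthesis enzyme, was listed at 0 in all 4 libraries. *CBS* shares 36.8% of its exon bases, and *ASNS* 49.3%, with another annotated gene on the same strand.

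Amino acid transporters moved in both directions. Of 14 tested, 4 fell and 3 rose, beside 14.1% and 8.57% of all genes, with a median of -0.05. A further 11 of the 25 on the list were too low to be tested. The glycine transporter *SLC6A9* (-1.38), the large neutral amino acid transporter *SLC7A5* (-1.12), the cystine and glutamate exchanger *SLC7A11* (-0.97) and the neutral amino acid transporter *SLC1A4* (-0.79) fell. *SLC7A5* was at 114 and 100.5 CPM in siCtrl and at 48.8 and 49.1 CPM in siATF4 cells. *SLC7A11* was at 24.8 and 21.7 CPM in siCtrl and at 11.7 and 11.4 CPM in siATF4 cells (standard error 0.143, adjusted p = 4.88e-05), again without overlap. By contrast the heavy chain *SLC3A2*, with which both SLC7A5 and SLC7A11 pair at the membrane, rose from 139 and 141 CPM to 213 and 220 CPM (0.63). The transporter *SLC6A15* (0.67) and the cationic amino acid transporter *SLC7A1* (0.61) rose as well, but were no longer called without siCtrl library 2 (0.56) and without siATF4 library 2 (0.57).

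Of the tRNA synthetases, listed among ATF4 targets in other settings, only the mitochondrial *MARS2* was called. None of the 21 cytosolic synthetases was called, their log2 fold changes running from -0.30 for *RARS1* to 0.56 for *FARSA* with a median of 0.09. By adjusted p under 0.05 alone, 4 were lower and 8 higher, the latter near the 33.4% of all genes, and without siCtrl library 1 1 of them was called raised. Of 17 mitochondrial synthetases, *MARS2* rose (0.82) and the others were not called.

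**Figure D2:**
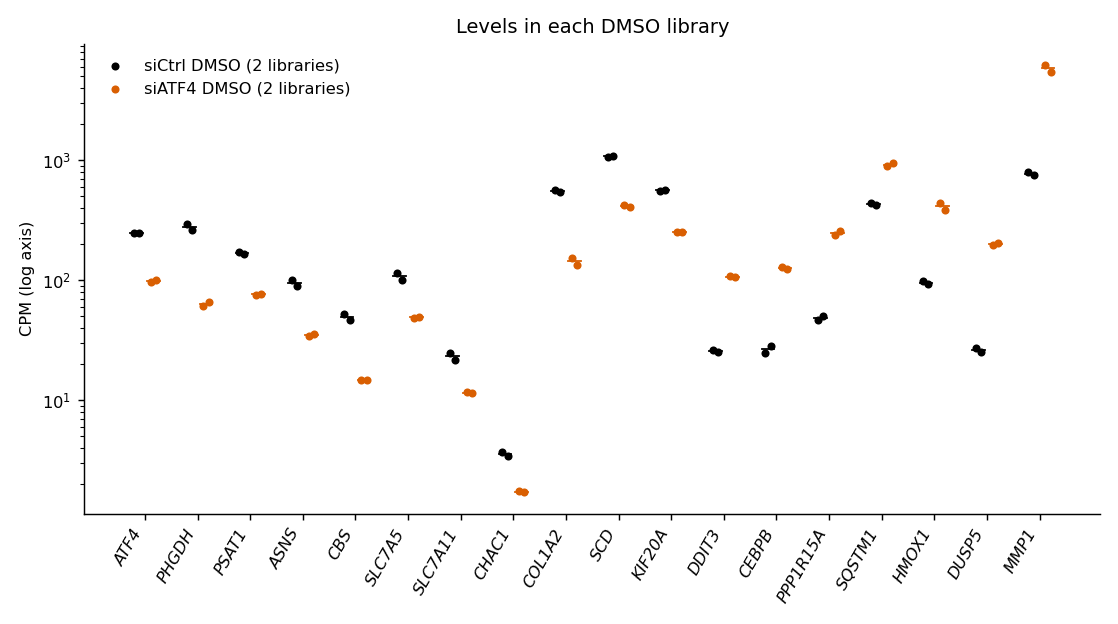
CPM on a log axis for 18 genes in each of the 4 DMSO libraries, siCtrl in black and siATF4 in orange, with a short line at the mean of each pair. The pairs of points sit close together and the groups are apart for each gene, lower with siATF4 from *ATF4* to *KIF20A* and higher from *DDIT3* to *MMP1*. Heights cannot be compared between genes, since CPM is not divided by transcript length.

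By adjusted p under 0.05 alone 7 of 13 tested genes of glutathione metabolism were lower and 3 higher. By the call 4 of the 13 fell and none rose, beside 14.1% and 8.57% of all genes. Besides *SLC7A11* and *CHAC1* these were *GGT1* (-2.30), which breaks down glutathione outside the cell and shares 56.5% of its exon bases with another gene on the same strand, and *GPX8* (-1.14), a peroxidase of the endoplasmic reticulum. *GPX8* was at 59.9 and 58.8 CPM in siCtrl and at 26.8 and 26.5 CPM in siATF4 cells. Both subunits of the ligase that makes glutathione stayed uncalled. The catalytic subunit, *GCLC*, stood at -0.07 (adjusted p = 0.347) and the modifier subunit *GCLM* at 0.56. *GPX4*, the peroxidase that spends glutathione on lipid peroxides, was at 228 and 221 CPM in siCtrl and at 225 and 221 CPM in siATF4 cells (-0.01, adjusted p = 0.865), with overlapping groups. No member was called raised, but 1 was without siATF4 library 2 and 1 without siCtrl library 2.

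Of 25 ferroptosis and iron genes tested, 1 fell and 3 rose, the latter near the 8.57% of all genes, with a median of -0.01. *SAT1*, whose polyamine acetyltransferase is known to favour lipid peroxidation, went from 7.44 and 7.26 CPM to 41.6 and 37.1 CPM (log2 fold change 2.34, adjusted p = 2.94e-11). *HMOX1*, heme oxygenase, went from 98.5 and 92.4 CPM to 440 and 387 CPM (2.11, adjusted p = 7.03e-10). *GCH1*, which makes the antioxidant tetrahydrobiopterin, rose (1.06), and the iron regulatory protein gene *IREB2* fell (-0.71). The count of raised members was 5 without siATF4 library 2. Of 20 NRF2 targets, which encode antioxidant and detoxifying enzymes, 9 fell and 3 rose, beside 14.1% and 8.57% of all genes. Their median was -0.55. *AKR1C3* (-2.09), the efflux pump *ABCC2* (-1.75) and the quinone reductase *NQO1* (-1.34) fell. *NQO1* went from 244 and 218 CPM to 97.0 and 84.3 CPM. The raised members were *HMOX1*, *OSGIN1* (1.34) and sulfiredoxin, *SRXN1* (0.61), 90.7% of whose exon bases are shared with a gene on the same strand.

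Among 12 brakes of mTORC1, the kinase complex that couples growth to amino acids, 2 fell and 2 rose, with a median of -0.11. The shares over all genes were 14.1% lowered and 8.57% raised. The arginine sensor homologue *CASTOR2* (-1.35) and *DDIT4* (-1.03) fell, *SESN2* (1.25), a leucine sensor, and *AKT1S1* (0.86) rose, and 8 of 12 were not called. *SESN2* was at 9.21 and 9.90 CPM in siCtrl and at 23.6 and 23.2 CPM in siATF4 cells, and *DDIT4* at 16.5 and 17.6 CPM and at 8.68 and 7.53 CPM. Among 24 genes of protein folding in the endoplasmic reticulum, 5 fell and 2 rose, near the 14.1% and 8.57% of all genes, and by adjusted p alone 6 were lower and 12 higher, with a median of 0.12. The fallen members were the degradation factors *EDEM1* (-0.86) and *SEL1L* (-0.71), the disulfide isomerase *PDIA3* (-0.85), the lectin chaperone calnexin, *CANX* (-0.65), and the stress sensor *ATF6* (-0.62). The IRE1 sensor gene *ERN1* (0.97) and *DNAJB9* (0.71) rose. The main chaperone of the compartment, *HSPA5*, stood at 966 and 920 CPM in siCtrl and at 931 and 895 CPM in siATF4 cells (-0.05, adjusted p = 0.352). Of 22 autophagy genes 5 rose and none fell, led by the cargo receptor *SQSTM1*, which went from 441 and 426 CPM to 894 and 939 CPM (1.08), and the kinase gene *ULK1* (0.84). *SQSTM1* shares 21.0% of its exon bases with a gene on the opposite strand. Among 5 stress-secreted factors *ADM2* fell (-1.03), and *ANGPTL4* (1.35) and *GDF15* (0.85) rose, while *FGF21* was listed at 0 in all 4 libraries. Without siCtrl library 1 a second secreted factor was called lowered.

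Genes induced by growth factor signalling through ERK were mostly raised. Of 27 tested, 19 rose and 1 fell, against 8.57% and 14.1% of all genes, and the median log2 fold change was 1.05. Many of its members restrain the pathway that induces them. *DUSP5*, a phosphatase of nuclear ERK, went from 27.2 and 25.1 CPM to 196 and 202 CPM (2.90, standard error 0.074, adjusted p = 7.25e-12). *DUSP6*, the cytoplasmic counterpart, went from 2.89 and 2.77 CPM to 15.9 and 16.5 CPM (2.33), and *SPRY4*, a Sprouty inhibitor of receptor signalling, from 4.21 and 4.33 CPM to 27.5 and 24.6 CPM (2.48). The ERK phosphatase gene *DUSP4* (2.16) rose from below 1 CPM. Among growth factors the EGF receptor ligand *HBEGF* rose (2.43), from 9.66 and 10.0 CPM to 55.6 and 54.7 CPM. Among transcription factors the AP-1 members *FOSL1* (1.39), *FOS* (1.05) and *JUN* (0.79) and *MYC* (0.96) rose. The ephrin receptor gene *EPHA4* (-1.75) fell, and a second member was called lowered without siATF4 library 1 and without siCtrl library 1. *DUSP6* shares 28.6% of its exon bases with a non-coding gene on the opposite strand.

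**Figure D3:**
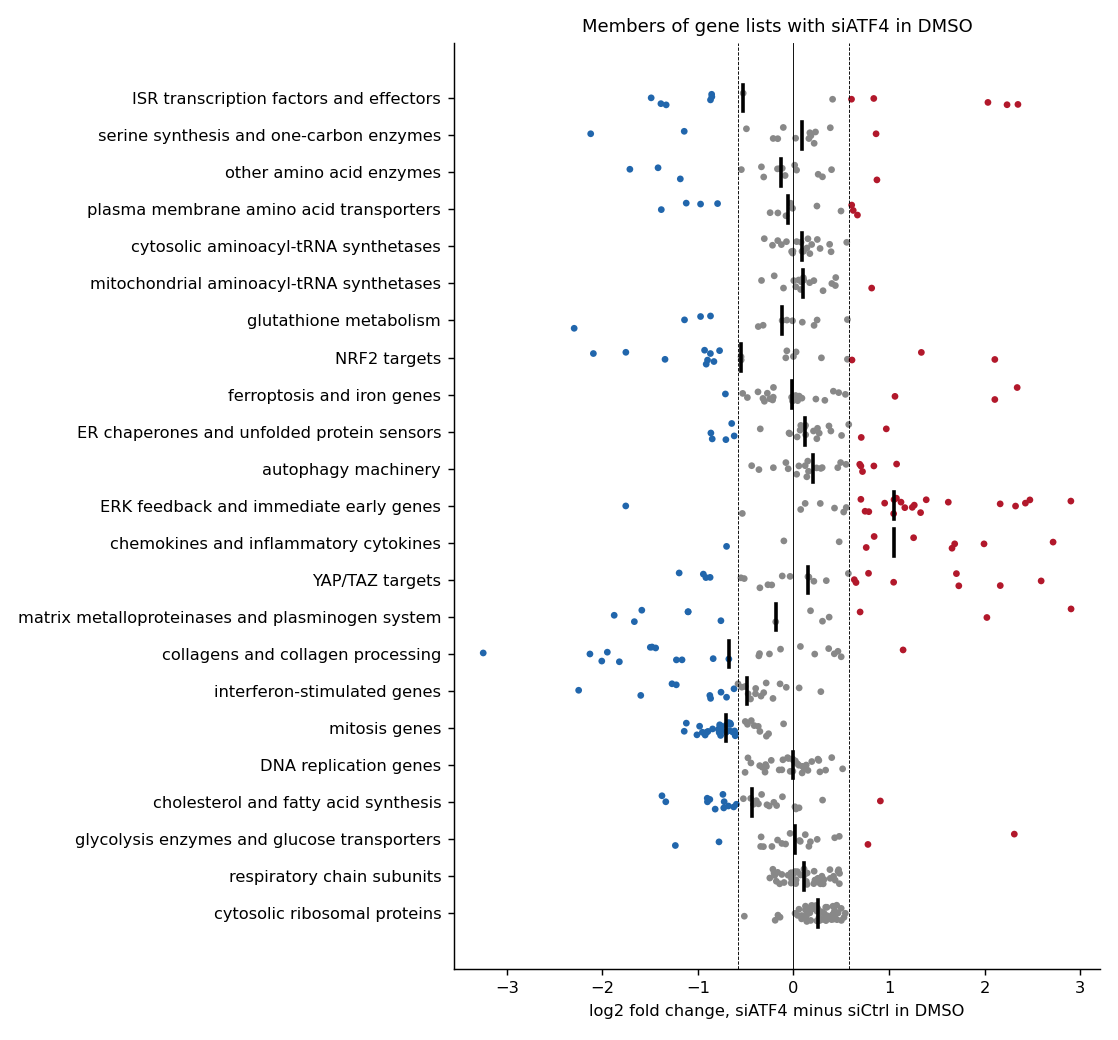
Each point is a tested member of a gene list, placed by its log2 fold change, siATF4 minus siCtrl in DMSO, with lowered members in blue, raised in red and the others in grey, and a black bar at the median of the list. Dashed lines mark 0.58 in either direction. ERK genes and chemokines lie mostly to the right with a median of 1.05 each, mitosis genes and collagens to the left at -0.70 and -0.68, and tRNA synthetases, DNA replication, respiratory chain and ribosomal genes stay within the lines but for *MARS2*.

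Chemokines and cytokines were mostly raised, and genes of matrix degradation moved both ways with more falls. Of 10 chemokines and cytokines tested, 7 rose and 1 fell, beside 8.57% and 14.1% of all genes, with a median of 1.05. A further 9 were too low to be tested, among them *TNF* and *IL1B*. *IL11*, an IL-6 family cytokine, went from 3.43 and 2.91 CPM to 24.6 and 22.6 CPM (2.72), *CXCL2*, which attracts neutrophils, from 2.16 and 2.55 CPM to 10.6 and 11.1 CPM (2.00), and *LIF* from 12.8 and 11.8 CPM to 42.9 and 37.1 CPM (1.66). *IL6* rose less (0.76), and the monocyte attractant *CCL2* fell from 187 and 183 CPM to 111 and 117 CPM (-0.70). With a filter at 5 CPM in 2 libraries, which leaves fewer members to test, 3 were called raised. Blood cell markers stayed at or near 0, as given above, except *CD68* (1.82), which went from 19.8 and 21.1 CPM to 75.0 and 71.9 CPM and shares 81.6% of its exon bases with another gene on the same strand. *MMP1*, the interstitial collagenase, went from 799 and 748 CPM to 6173 and 5446 CPM (2.91, standard error 0.121, adjusted p = 3.58e-10). The urokinase receptor gene *PLAUR* (2.02) rose too, whereas *MMP24* (-1.88), the inhibitor *TIMP3* (-1.66) and the protease inhibitor *SERPINE2* (-1.59) fell. In all, 6 of 13 genes of the metalloproteinase and plasminogen list fell and 3 rose, with a median of -0.19.

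Fibrillar collagen genes were among the falls of the matrix. Of 23 collagens and collagen-processing genes tested, 12 fell and 1 rose, beside 14.1% and 8.57% of all genes, with a median of -0.68. *COL3A1* went from 35.6 and 35.5 CPM to 3.09 and 3.52 CPM (-3.25, adjusted p = 6.34e-12). The chains of type I collagen, *COL1A2* and *COL1A1*, went from 568 and 539 CPM to 153 and 134 CPM (-1.95) and from 27.6 and 29.8 CPM to 6.92 and 5.49 CPM (-2.13). The cross-linking enzyme gene *LOXL1* fell (-2.01), and its relative *LOX* was the member that rose (1.15). By adjusted p alone 15 members were lower and 6 higher, the latter including the type VI chains *COL6A1* (0.47) and *COL6A2* (0.50), which were not called. A second member was called raised without siCtrl library 1. Of the mesenchymal markers, *S100A4* (-2.69) and fibronectin, *FN1* (-1.36), fell, *ZEB1* rose (0.75), and vimentin, *VIM*, stood at -0.09 (adjusted p = 0.136). Among epithelial markers the keratin *KRT8* fell from 2284 and 2205 CPM to 1129 and 1215 CPM (-0.94), the tight junction gene *CLDN1* rose (0.68), and *KRT18*, the partner of *KRT8* in keratin filaments, stood at -0.01 (adjusted p = 0.880). *FGB*, the fibrinogen chain that made up most of the hepatocyte marker sum, fell from 368 and 431 CPM to 68.5 and 72.2 CPM (-2.49). In bulk RNA a change in the share of cells of a kind and a change in the RNA of each cell cannot be told apart.

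The message of the Hippo pathway factor TAZ, *WWTR1*, fell from 170 and 173 CPM to 107 and 104 CPM (-0.70, adjusted p = 1.29e-05), whereas *YAP1* was at 277 and 280 CPM and at 236 and 242 CPM (-0.22), under the size required for a call. Genes known to be raised by YAP/TAZ did not follow in 1 direction. Of 24 tested, 4 fell, near the 14.1% of all genes, and 8 rose, beside 8.57% of all genes, with a median of 0.16. *CCN2* went from 33.7 and 32.5 CPM to 101 and 117 CPM (1.71), *ANKRD1* from 1.38 and 1.75 CPM to 6.06 and 6.62 CPM (1.73), and the ecto-5′-nucleotidase gene *NT5E* from 10.8 and 10.2 CPM to 53.1 and 45.0 CPM (2.16). *CCN1* rose less (0.79). *IGFBP3*, which binds insulin-like growth factors, fell from 528 and 518 CPM to 209 and 249 CPM (-1.20).

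Mitosis genes were mostly lowered, and no DNA replication gene was called. Of 35 mitosis genes, 26 fell and none rose, beside 14.1% and 8.57% of all genes. All 35 had a negative log2 fold change with an adjusted p under 0.05, and the median was -0.70. *KIF20A*, a kinesin of cytokinesis, went from 555 and 565 CPM to 252 and 254 CPM (-1.14, standard error 0.039, adjusted p = 6.76e-11), and the spindle gene *DLGAP5* from 129 and 133 CPM to 57.7 and 62.1 CPM (-1.12). *ECT2* (-1.01), *CDC25B* (-0.98), the topoisomerase *TOP2A* (-0.85) and cyclin B1, *CCNB1* (-0.76), fell with them. Of 33 DNA replication genes none was called, with a median of -0.01, with 10 lower and 7 higher by adjusted p under 0.05 alone. The helicase subunit *MCM2* was at 240 and 239 CPM in siCtrl and at 248 and 250 CPM in siATF4 cells (0.06, adjusted p = 0.293). *CDKN1A*, which encodes the cyclin-dependent kinase inhibitor p21, went from 15.6 and 15.2 CPM to 107 and 97.6 CPM (2.69, adjusted p = 1.75e-10), and *GADD45A*, a growth arrest gene, from 14.7 and 13.8 CPM to 84.9 and 92.0 CPM (2.59). Of 16 p53 targets tested 3 rose and 1 fell, beside 8.57% and 14.1% of all genes, with a median of 0.06. By adjusted p under 0.05 alone 5 were lower and 8 higher. *CDKN1A* was among the raised and *TP53INP1* fell (-1.81), while *MDM2*, the ubiquitin ligase gene for p53, stood at 0.26. A second p53 target was called lowered without siATF4 library 1.

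Cell death genes were mostly raised where they changed, with 7 of 19 raised and 1 lowered, beside 8.57% and 14.1% of all genes. These include genes for and against death. The exception was among the deepest falls of the data, *BMF*, a BH3-only activator of apoptosis, from 23.4 and 25.2 CPM to 2.12 and 1.37 CPM (-3.48). The decoy receptor gene *TNFRSF10D* (1.29) and the death receptor gene *TNFRSF10A* rose. *BCL2A1* (1.70) and the survival gene *BCL2* (0.96) rose too, both from below 1 CPM.

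Genes of lipid synthesis and uptake fell in part. Of 28 cholesterol and fatty acid genes 12 fell and 1 rose, beside 14.1% and 8.57% of all genes, with a median of -0.43. *SCD*, the desaturase that makes monounsaturated fatty acids, went from 1068 and 1079 CPM to 421 and 406 CPM (-1.38). Both siATF4 libraries lay far below both siCtrl libraries. *LSS*, which closes the sterol rings in cholesterol synthesis, fell (-0.90). *ELOVL6*, a fatty acid elongase, rose (0.91). Interferon-stimulated genes fell in part. Of 24 tested 9 fell and none rose, beside the same shares of all genes, with a median of -0.49. *IFIT1* went from 2.67 and 3.15 CPM to 0.214 and 0.218 CPM (-2.25), *OAS2* from 1.53 and 1.38 CPM to 0.171 and 0.119 CPM (-1.60), and *USP18* (-1.27), *OAS1* (-1.23) and the signal transducer *STAT2* (-0.70) fell as well. *MX1*, an antiviral GTPase gene, stood at 0.06 (adjusted p = 0.683).

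Respiratory chain and ribosomal genes were not called. None of 46 respiratory chain subunits was called (log2 fold changes from -0.25 to 0.48) and none of 60 cytosolic ribosomal proteins (from -0.51 for *RPL31* to 0.54 for *RPS2*), although 50 of the ribosomal proteins were higher by adjusted p under 0.05 alone, with a median of 0.26. The ribosomal median was 0.27 with TMM scaling and 0.25 after quantile normalization. Of 20 glycolysis genes 2 fell and 2 rose, near the 14.1% and 8.57% of all genes, with a median of 0.01. The hexokinase *HK2* went from 14.4 and 13.3 CPM to 68.9 and 72.9 CPM (2.31) and the enolase *ENO2* rose (0.78), while *PFKFB4* (-1.24) and lactate dehydrogenase A, *LDHA* (-0.78), fell. Of 13 hypoxia genes *DDIT4* alone was called, joined by a second lowered member without siCtrl library 1.

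The deepest falls reached genes outside these pathways. *MUC16*, the mucin known as CA125, was at 17.1 and 29.5 CPM in siCtrl and at 1.16 and 0.911 CPM in siATF4 cells (-3.91) with no overlap although the siCtrl libraries lay far apart. *LRRC32*, a surface anchor of latent TGF-beta, went from 31.6 and 31.3 CPM to 2.46 and 1.88 CPM (-3.59). *PPL*, the cytolinker periplakin, went from 411 and 397 CPM to 39.3 and 34.5 CPM (-3.44). *VAV3*, a guanine nucleotide exchange factor (-3.37), *GPRC5B* (-3.22), *SGK2* (-3.21), *CD24* (-3.08) and *WFDC21P* (-2.93) completed the 10 largest falls with *BMF* and *COL3A1*. *CD24* has near-identical copies, and reads that fit more than 1 place in the genome were left out by the authors. *WFDC21P* is a transcribed pseudogene. Of the exon bases of *GPRC5B* 26.7%, and of those of *WFDC21P* 24.6%, overlap a gene on the opposite strand. The largest rises were of *TRAF1*, an adaptor of TNF receptors, from 1.70 and 1.26 CPM to 26.7 and 28.5 CPM (3.83), *KRTAP2-3* (3.39), *NRIP3* (2.95), *MMP1*, *DUSP5*, the secreted glycoprotein *STC1* (2.75), *IL11*, *CDKN1A*, *BIRC3* (2.62), an inhibitor of apoptosis, and *GADD45A*. *BIRC3* went from 48.6 and 41.6 CPM to 273 and 286 CPM. *KRTAP2-3* belongs to a family of near-identical genes.

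The comparison of siY/T with siCtrl in DMSO shares its siCtrl libraries with the one above, so its values are only set side by side for a few genes, chosen after their values were seen. With siY/T the log2 fold changes were -0.63 for *PHGDH*, -1.15 for *PSAT1*, -1.53 for *ASNS*, -1.69 for *SLC7A5* and -1.49 for *SLC7A11*, where siATF4 gave -2.12, -1.14, -1.42, -1.12 and -0.97. For *CEBPB*, *DDIT3* and *DUSP5* siY/T gave 0.14, -0.15 and 0.14, where siATF4 gave 2.24, 2.04 and 2.90. Some of the deepest falls with siATF4 went the other way with siY/T. For *MUC16*, *LRRC32*, *BMF* and *CD24* siY/T gave 3.32, 1.87, 2.19 and 2.04, where siATF4 gave -3.91, -3.59, -3.48 and -3.08. *COL3A1* stood at 0.12 with siY/T.

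The effect of siATF4 in vehicle was then compared with that of siATF4 in Sorafenib, which rests on 4 other libraries. Genes lowered in DMSO were lowered in Sorafenib in 1497 of 1910 cases (78.4%, and 59.3% of the 2525 lowered in Sorafenib), and 1 was raised there. Genes raised in DMSO were raised in Sorafenib in 644 of 1158 cases (55.6%, and 46.5% of 1386), and 11 were lowered there. The difference between both effects passed an adjusted p under 0.05 and a size of 0.58 for 1077 genes (7.97%) with a lower and 582 genes (4.31%) with a higher effect in Sorafenib. Of the lowered genes 416 had such a difference, 183 of them nearer to no change in Sorafenib and 233 farther from it. Of the raised genes 224 had one, 200 nearer and 24 farther. Both sets were chosen by their DMSO values, so these counts are a description.

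Of 13 ISR genes 9 had a lower effect of siATF4 in Sorafenib and none a higher, beside 7.97% and 4.31% of all genes. The list was itself higher with Sorafenib than with DMSO in siCtrl cells, by a median of 0.97 on the log2 scale, with a median of -0.11 in siATF4 cells. *ATF4* was at 484 and 492 CPM in siCtrl and at 84.5 and 90.6 CPM in siATF4 cells with Sorafenib, a log2 fold change of -2.47 where DMSO gave -1.33. *DDIT3* was at 80.6 and 77.6 CPM in siCtrl and at 97.0 and 101 CPM in siATF4 cells with Sorafenib (0.32), so that the difference from DMSO was -1.71 (standard error 0.068, adjusted p = 3.71e-08). *CEBPB* was at 56.8 and 60.4 CPM and at 64.2 and 62.3 CPM (0.11, difference -2.13). *TRIB3* and *SESN2* turned, from rises in DMSO to falls of -0.94 and -0.64, and *GDF15* did likewise (-0.85). *CHAC1* fell further with Sorafenib (-2.76, difference -1.89), from 18.0 and 20.3 CPM to 2.43 and 2.38 CPM, as did *DDIT4* (-3.29, difference -2.25) and *SLC7A11* (-2.23, difference -1.26). *SQSTM1* (-0.22) was not called in Sorafenib. The histone demethylase gene *KDM6B*, at 0.51 in DMSO and not called there, fell with Sorafenib (-1.32). The median difference over the ISR list was -0.98 beside -0.015 over all genes.

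**Figure D4:**
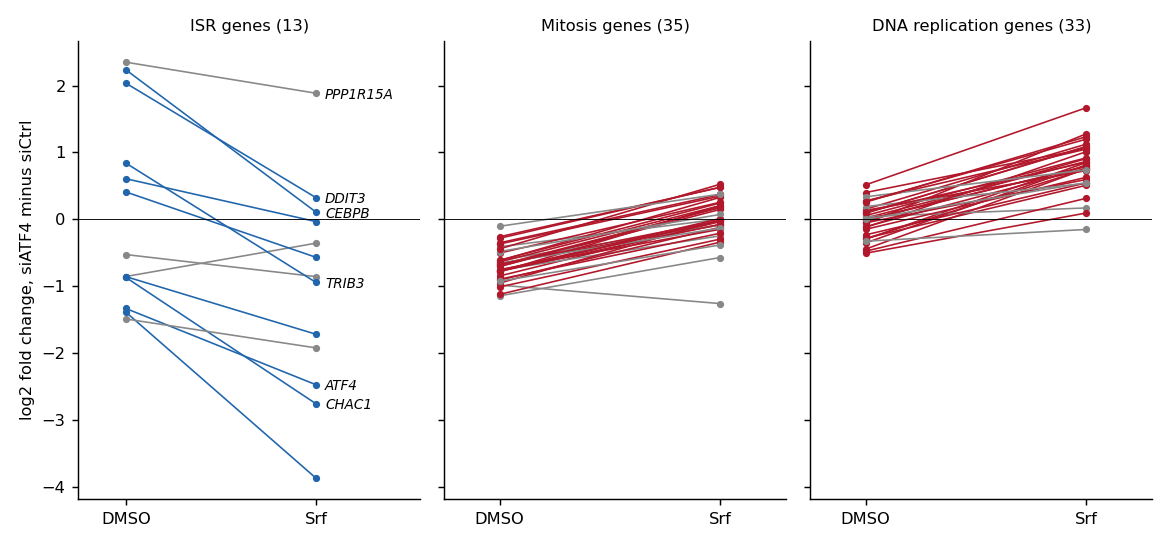
Log2 fold changes, siATF4 minus siCtrl, in DMSO and in Sorafenib (Srf) for the members of 3 gene lists, each line being 1 gene. Blue lines have a lower and red lines a higher effect in Sorafenib by the test of the difference, and grey lines neither. Blue lines make up 9 of 13 ISR genes, and red lines 26 of 35 mitosis genes and 28 of 33 DNA replication genes.

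Genes of cell division differed the other way. The effect was higher in Sorafenib for 26 of 35 mitosis and 28 of 33 DNA replication genes, beside 4.31% of all genes. It was lower for none of either, beside 7.97% of all genes. The median log2 fold changes in Sorafenib were -0.01 and 0.79. In siCtrl cells these lists were lower with Sorafenib than with DMSO, by medians of -0.63 and -0.85 on the log2 scale, and in siATF4 cells the medians were 0.12 and 0.04. *MCM10*, a replication factor, was at 106 and 104 CPM in siCtrl and at 97.3 and 104 CPM in siATF4 cells with DMSO, and at 33.2 and 34.6 CPM and at 82.2 and 83.8 CPM with Sorafenib (difference 1.34). The largest differences in this direction were those of *ANKRD1* (1.84), *EFHB* (1.77), *PPME1* (1.58), a phosphatase methylesterase gene that fell in DMSO (-0.84) and rose with Sorafenib (0.74), and *BDNF* (1.45), a neurotrophin that stood at -0.09 in DMSO. *IGFBP3* (difference 1.18) and *WWTR1* (0.61) were lowered in DMSO and not with Sorafenib, at -0.02 and -0.09. In siCtrl cells *IGFBP3* was at 528 and 518 CPM with DMSO and at 212 and 214 CPM with Sorafenib. In siATF4 cells it was at 209 and 249 CPM and at 204 and 217 CPM.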

How the data were processed

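RNA of HLE cells was sequenced in 12 libraries, 2 in each of 6 groups. The authors used STAR for alignment to hg19 and QuasR for counting over RefSeq exons, and deposited CPM, scaled to 1000000 gene reads per library, for 26258 Entrez identifiers, of which RefSeq named 26111. By the paper's methods only reads with a unique hit in the genome were kept. Whether counting used strand is not given in the sources used here. Their own comparisons were made with edgeR and were not used. The paper and the labels differ on the Sorafenib dose and on replicates. The labels, with 2 libraries per group, were followed.

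All 12 columns matched a sample. Values were whole multiples of 1 read, within 0.001 read, in 100% of cases, so whole reads were recovered for count tests. On these reads edgeR 4.0.16 called 2143 genes lowered and 1358 raised by siATF4 in DMSO, and DESeq2 1.42.0 called 2139 and 1310.

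Genes that reached 1 CPM in 2 or more of the 12 libraries were tested on log2(CPM + 0.5), a scale that understates changes of low genes, with limma 3.58.1 in R 4.3.3, 1 coefficient per group and a variance trend, so the 6 groups share 1 estimate of the spread. Adjusted p are by Benjamini-Hochberg over all 13515 genes. A difference between the effects in Srf and in DMSO needed an adjusted p under 0.05 and a size of 0.58. Same-numbered siCtrl and siATF4 DMSO libraries did not deviate together (correlation 0.036), so no pairing was used.

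Named were *ATF4* and genes discussed with it, the 10 largest falls and rises whose mean reached 5 CPM and whose groups were apart, up to 4 called members of each list in each direction, and the 5 largest differences in each direction with a mean of 5 CPM or more over the 8 libraries compared. Other list members, and the contrast promoters, were named after their values were seen. The 34 gene lists held 724 entries, and members and lists were chosen with earlier results of these data known. Positions are GRCh37 from GENCODE, and exon overlaps of 20% or more are given. Promoters are RefSeq, GRCh38.p14. The steps were tested on simulated reads. Tables and figures used Python 3.11.15, pandas 2.3.3 and matplotlib 3.10.9.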

Additional observations from a re-analysis of the deposited data

Results flagged for a closer look

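For 56 of the genes named in the text, the effect of siATF4 in Sorafenib differed from that in DMSO by the interaction term in limma, at an adjusted p of at most 0.0222 and a size of at least 0.58 on the log2 scale. Each value is the log2 fold change in Sorafenib minus that in DMSO. The effect was lower in Sorafenib for 36 of them, by *NUPR1* -2.48, *DDIT4* -2.25, *KRTAP2-3* -2.19, *CEBPB* -2.13, *SESN2* -1.89, *CHAC1* -1.89, *KDM6B* -1.83, *SAT1* -1.80, *TRIB3* -1.78, *GDF15* -1.71, *DDIT3* -1.71, *TRAF1* -1.71, *ADM2* -1.68, *IL11* -1.56, *HMOX1* -1.46, *DUSP4* -1.41, *AKR1C3* -1.38, *SQSTM1* -1.30, *SLC7A11* -1.26, *ULK1* -1.23, *CXCL2* -1.16, *ATF4* -1.14, *CBS* -1.10, *SLC6A15* -1.01, *MTHFD2* -0.98, *CLDN1* -0.97, *MMP24* -0.91, *SLC6A9* -0.91, *JDP2* -0.86, *IFIT1* -0.80, *STC1* -0.74, *LIF* -0.73, *ERN1* -0.67, *CYP2E1* -0.67, *GGT1* -0.66 and *CEBPG* -0.64. It was higher in Sorafenib for 20, by *ANKRD1* 1.84, *EFHB* 1.77, *PPME1* 1.58, *BDNF* 1.45, *MCM10* 1.34, *IGFBP3* 1.18, *FGB* 1.07, *LRRC32* 1.07, *PPL* 1.06, *CCN2* 0.95, *MCM2* 0.86, *TOP2A* 0.81, *DLGAP5* 0.78, *ECT2* 0.71, *ABCC2* 0.69, *SPRY4* 0.65, *GPRC5B* 0.65, *FOSL1* 0.64, *CCL2* 0.64 and *WWTR1* 0.61. *TRIB3*, *SESN2*, *GDF15* and *PPME1* turned direction and passed the call in both arms. *BCL2A1* and *TNFRSF10A*, named with the cell death genes, were left out of the count of 56. *BCL2A1* passed the same rule, with a lower effect in Sorafenib (-1.40, adjusted p = 1.06e-04 by the interaction term in limma). The level of *NUPR1* in siATF4 cells is at or near 0 reads, so its value depends on the pseudocount. With 2 libraries per group no test for a single outlying library was made.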

How the results depend on the processing

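The counts of genes lowered and raised in DMSO stayed within 1.5 times of 1910 and 1158 under every setting tried but 1. With an adjusted p under 0.05 and a size of 1, 764 genes were lowered and 277 raised, and 318 differed between DMSO and Sorafenib in place of 1659. Leaving out 1 library at a time gave 1865 to 1962 lowered and 1149 to 1216 raised genes and 1540 to 1714 differences. With the replicate number as a block the counts were 1910, 1157 and 1655, and the block is only a shared number here. Pseudocounts of 0.1 and 1 gave 2137 and 1693 lowered genes, quantile normalization moved the lowered share of calls from 62.3% to 53.7%, edgeR gave 2143 lowered and 1358 raised genes and DESeq2 2139 and 1310. *GPX4* and *KRT18*, not called, changed sign about zero. *GPX4* was at 0.039 after quantile normalization and from -0.031 to 0.010 with 1 library left out, and *KRT18* from -0.030 to 0.013. Outside the stricter size, calls were lost for *SLC7A1* and *SLC6A15* as given above and for the cytochrome P450 gene *CYP2E1*, a hepatocyte marker, at -0.56 with a pseudocount of 1 and -0.47 after quantile normalization. *GCLM* and *FARSA*, just under the size required, were called under some settings. With 2 libraries per group the spread rests on few values, the knockdown of the message was partial, and no second siRNA was used here.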
